A study of Mus musculus with 4 samples.

Results

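The genes described here encode auxiliary subunits of voltage-gated calcium channels. They are the alpha2delta genes *Cacna2d1*, *Cacna2d2* and *Cacna2d3* and the beta genes *Cacnb1*, *Cacnb2*, *Cacnb3* and *Cacnb4*. The 7 genes were chosen by their symbols, as a family, from the 31053 genes of the count matrices, and all 7 were counted.

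The pore of a voltage-gated calcium channel is an alpha1 subunit, and the auxiliary subunits set how many channels reach the membrane and how they open. An alpha2delta subunit lies on the outer face of the membrane and promotes trafficking of channels to nerve terminals, whereas a beta subunit binds the alpha1 subunit from the cytoplasm. In sensory neurons, the products of *Cacna2d1* and *Cacna2d2* bind gabapentin and pregabalin, drugs given for neuropathic pain, and that of *Cacna2d3* does not bind them with high affinity.

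Single-cell RNA-seq libraries were made from lumbar L4-5 dorsal root ganglia (DRGs), which hold the cell bodies of sensory neurons. The mice were heterozygous *Pirt*EGFPf animals on C57BL/6, aged 7-8 weeks, and males and females of a litter had one and the same kind of surgery. These mice are a knock-in: EGFPf, a form of EGFP that attaches to membranes, is made from the *Pirt* locus instead of *Pirt*, and so in cells where that gene is active. GFP+ cells were sorted 7 days after both sciatic nerves had received a chronic constriction injury (CCI) or a sham operation. There was 1 library per sex and surgery, each pooled from 5 mice and 20 DRGs, named Male-Sham and Female-Sham, or Male-CCI and Female-CCI. *Pirt* is absent from some large neurofilament-rich (NF) neurons, so these may be underrepresented. The male and female libraries of a surgery served as its replicates (n = 2 per group). In tests between surgeries, p-values therefore measure the spread between 2 pooled libraries that also differ in sex. Since littermates had the same surgery, these libraries may share litters, and differences between surgeries cannot be told apart from differences between litters. Tests within a surgery had library as a block, so theirs measure how the difference between arms varies between the 2 libraries. All tests shared estimates of spread across genes, so very small p-values do not rest on 2 libraries alone. Unless stated otherwise the sham libraries are listed first, then the CCI libraries, and the male before the female library of each.

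The libraries held 195684124 to 237069156 UMIs, and after quality filters 2947 to 5548 cells per library were kept. Clusters not named as glial or immune cells were taken as neurons, 3281, 5398, 2817 and 3636 cells. A cluster with neuronal levels of *Tubb3*, *Snap25* and *Uchl1* took no such name. Neurons were given class names ending in "-like" from marker lists: non-peptidergic (NP1 to NP3), peptidergic (PEP1 to PEP5), NF1 and NF2, C-fiber low-threshold mechanoreceptor (cLTMR), and the CCI-induced (CCI-ind) neurons. In addition 1 neuronal cluster of 264 cells, led by *Calb1*, matched no marker list and stayed unnamed. No list was made for the *Trpv1*+ PEP6 class of the study, and *Trpv1* was among the leading genes of this cluster. The cluster counts among all neurons and in no class. Summed *Tubb3* in all neurons was 2451 to 4688 counts per 1000000 UMIs (CPM) and in satellite glial cell (SGC)-like cells 160.2 to 348.7 CPM. Pairs of libraries shared 215 to 513 barcodes, of which at most 6 were among kept cells of both. Neurons with ln-normalized *Sprr1a* above 1, a marker of injured neurons, were called *Sprr1a*+ and the rest *Sprr1a*-. *Sprr1a*+ neurons numbered 42, 144, 1467 and 1788.

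A level below is the CPM of UMIs summed over the cells of a group in 1 library. Because each UMI stands for 1 captured 3′ end, no scaling for gene length was applied, and differences between genes in capture were not measured. A gene was called changed at an adjusted p below 0.05 and an absolute log2 fold change above 0.5 in edgeR's quasi-likelihood test, with p-values adjusted over all genes tested by Benjamini-Hochberg. Fold changes come from this fit, which rescales libraries. For comparisons of *Sprr1a*+ with *Sprr1a*- neurons, the plain log2 ratio of mean CPM minus the fitted log2 fold change had a median over the members tested of -0.17 for all neurons of CCI, -0.32 for NF1-like and -0.20 for NF2-like neurons.

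*Cacna2d1* (ENSMUSG00000040118) spans positions 15934691 to 16374511 of chromosome 5 on the plus strand of GRCm38. The 250 bases that precede its RefSeq start (GRCm38.p6, chr5:15934441-15934690, plus strand) are shown because this was the member with the highest summed level in every neuron library, and had the largest difference of the members within a class below. Capitals mark the letters of GC boxes, GGGCGG on either strand, where matches may overlap.
Cacna2d1 promoter: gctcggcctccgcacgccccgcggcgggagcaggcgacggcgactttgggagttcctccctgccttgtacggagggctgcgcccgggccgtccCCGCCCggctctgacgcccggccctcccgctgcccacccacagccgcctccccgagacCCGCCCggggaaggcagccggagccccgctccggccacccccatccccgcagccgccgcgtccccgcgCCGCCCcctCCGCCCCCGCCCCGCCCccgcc
The stretch held 6 GC boxes and 82.4% G and C. It held 0 matches to the AP-1 motif TGANTCA and 0 to the CRE motif TGACGTCA, each read on both strands. Of 32851 mouse promoters in the RefSeq table, read over the same 250 bases, 32.74% held a GC box, 6.749% the AP-1 motif and 1.546% the CRE motif.

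In sham neurons, *Cacna2d1* was the main alpha2delta transcript, with 300.5 CPM in Male-Sham and 329.9 CPM in Female-Sham. It made up 74.9% to 77.7% of the UMIs of the 3 alpha2delta genes there, *Cacna2d2* 18.0% to 20.3% and *Cacna2d3* 4.28% to 4.80%. Among the beta subunit genes, *Cacnb3* supplied 67.7% to 67.8% of UMIs in sham neurons, *Cacnb4* 22.6% to 22.8%, *Cacnb1* 7.82% to 7.90% and *Cacnb2* 1.59% to 1.79%. These shares compare UMIs and not lengths or protein.

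The 10 classes of *Sprr1a*- sham neurons differed in the members they expressed. *Cacna2d1*, *Cacna2d2*, *Cacna2d3* and *Cacnb4* ranked among the variable genes of the data. Class levels are given as a description with no test. *Cacna2d1* was highest in PEP3/4-like neurons, 610.7 CPM in Male-Sham and 646.1 CPM in Female-Sham, and then in PEP2-like neurons, 479.2 and 520.0 CPM. The order went on through PEP1-, PEP5-, NF2-, NP2- and NP3-like neurons to NP1-like neurons (121.4 and 139.5 CPM) and cLTMR-like neurons (133.2 and 121.9 CPM). Of the 9 pairs of neighbours in this order, only NP1- and cLTMR-like neurons overlapped between libraries. NF1-like neurons were last at 42.67 and 50.36 CPM, so the highest class mean was 13.5 times the lowest.

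*Cacna2d2* varied less, from a mean of 128.7 ± 14.0 CPM in NP1-like neurons to 32.88 ± 0.396 CPM in NF1-like neurons (SD, n = 2). In this order 3 pairs of neighbours overlapped: NP1- with PEP1-like, NP2- with PEP2-like and NF2- with NF1-like neurons. In NP1-like sham neurons, *Cacna2d1* and *Cacna2d2* supplied similar shares of alpha2delta UMIs, 42.1% to 49.4% and 42.1% to 48.0%.

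*Cacna2d3* had nearly the opposite order of *Cacna2d1*. It was highest in cLTMR-like neurons, 51.34 CPM in Male-Sham and 51.08 CPM in Female-Sham, and second in NF1-like neurons, 40.12 and 40.85 CPM. Its lowest levels were in PEP2-like neurons, 2.099 and 1.320 CPM, and PEP3/4-like neurons, 0.9075 and 1.447 CPM, which overlapped each other. The means of the first and last class differed 43.5 times. Over the 20 points given by 10 classes in 2 sham libraries, which share a library and a depth within each library, the Pearson correlation of log2(CPM + 1) was -0.85 between *Cacna2d1* and *Cacna2d3*.

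Of the beta genes, *Cacnb3* was the most even, with 258.8 and 257.1 CPM in PEP1-like neurons at the top and 150.0 and 142.4 CPM in NP1-like neurons at the bottom, 1.77 times apart. *Cacnb4* was abundant in NF2-like neurons, 146.2 and 151.2 CPM, and in NF1-, PEP5-, NP2- and cLTMR-like neurons, where both libraries lay between 97.63 and 138.7 CPM. In NP3-like neurons it was at 5.674 and 10.65 CPM and in NP1-like neurons at 1.297 and 1.789 CPM. This 96.4-fold range set NP1- and NP3-like neurons apart from NP2-like neurons within the non-peptidergic classes.

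*Cacnb1*, the beta subunit known from skeletal muscle, ranged from 42.54 and 39.06 CPM in PEP3/4-like neurons to 11.67 and 12.97 CPM in cLTMR-like neurons. *Cacnb2*, which pairs with L-type channels in heart, was sparse outside peptidergic neurons. It reached 16.54 and 21.07 CPM in PEP5-like and 17.57 and 16.16 CPM in PEP3/4-like neurons, which overlapped, then 6.174 and 8.076 CPM in PEP2-like neurons. In NP2-like neurons it was at 0.1600 and 0.1022 CPM. The 4 classes with the most *Cacnb2* were peptidergic, whereas *Cacnb4* was highest in NF2-like neurons. The last of the 4, PEP1-like neurons, had only 2.848 and 2.682 CPM of *Cacnb2*, near NF1-like neurons at 2.628 and 1.552 CPM.

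**Figure D1:**
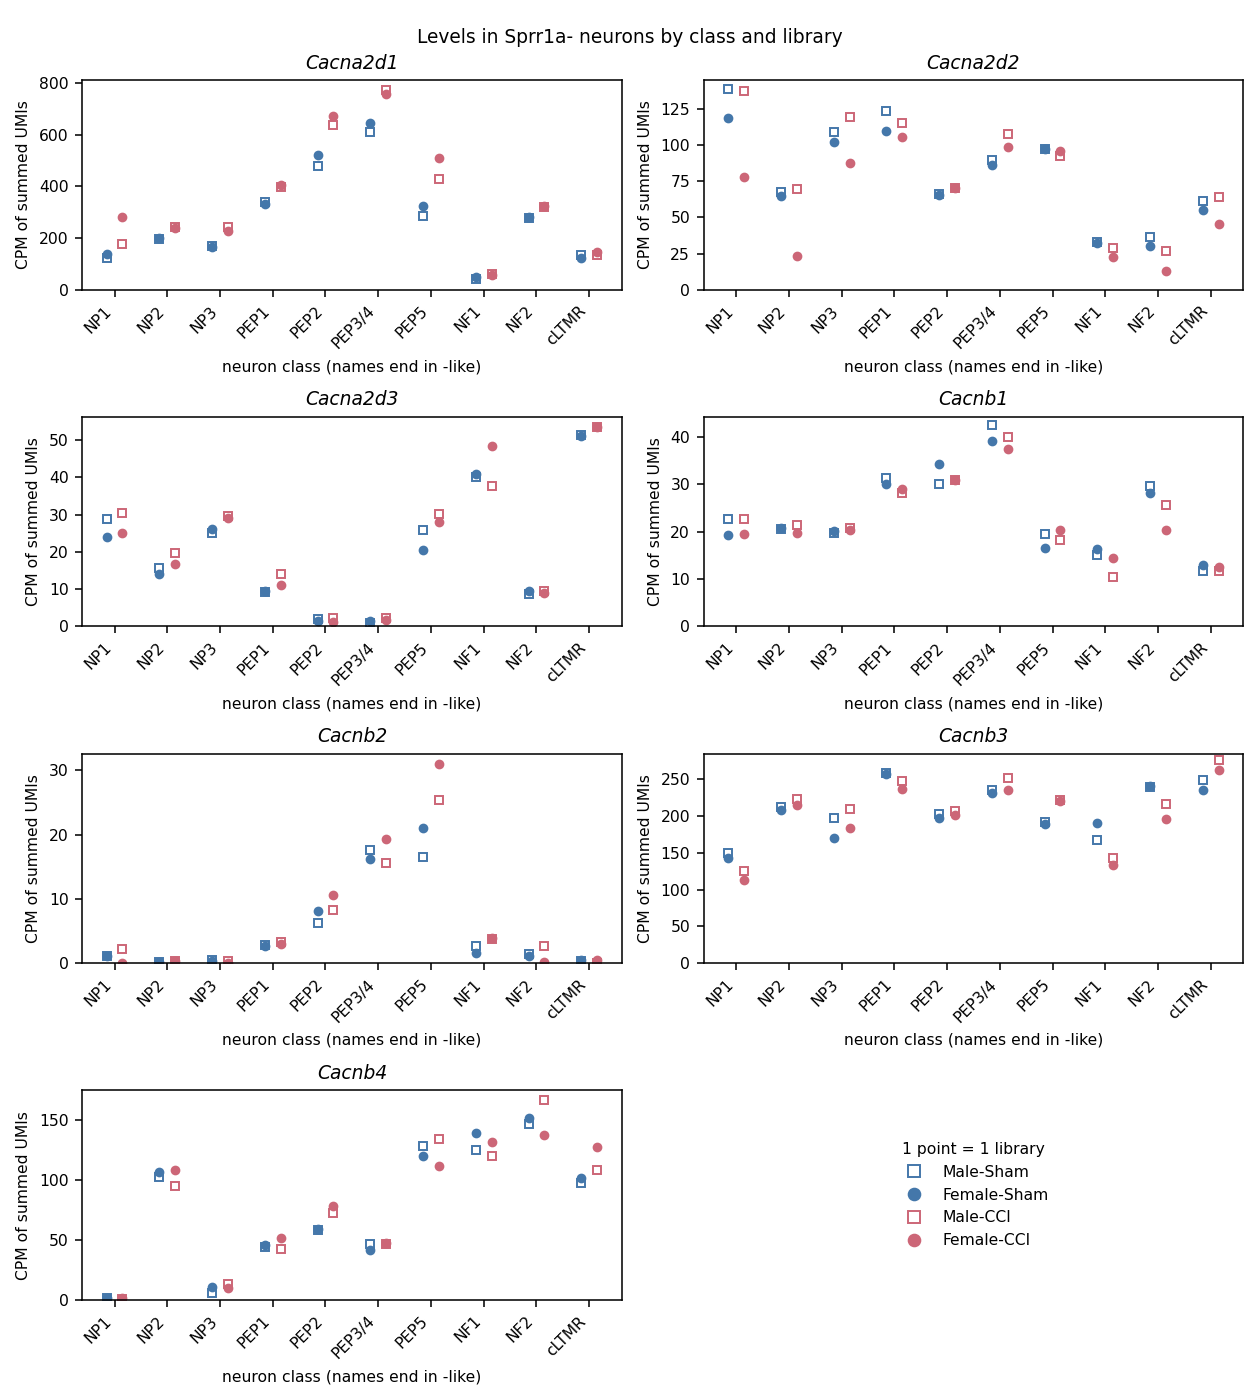
Levels of the 7 genes in Sprr1a- neurons by class. The y axis is CPM of summed UMIs on a linear scale from 0, and each point is 1 of the 4 libraries, with sham in blue, CCI in red, males as open squares and females as filled circles. Cacna2d1 in PEP3/4-like neurons lies between 610.7 and 774.0 CPM, and the low Cacna2d2 point in NP2-like neurons is Female-CCI at 23.03 CPM.

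Genes with the most similar patterns over the 20 points, among 8350 genes of at least 10 CPM, were ranked by Pearson correlation of log2(CPM + 1). The 3 most alike were *Upp2*, *Hspa13* and *H3f3b* for *Cacna2d1* (0.93, 0.93 and 0.92), *Cdk19*, *Thap2* and *Ybx1* for *Cacna2d2* (0.94, 0.94 and 0.93), and *Armcx1*, *Gbe1* and *Ppcs* for *Cacna2d3* (0.91, 0.89 and 0.89). For the beta genes they were *BC030867*, *Vstm2l* and *Atp2b4* for *Cacnb1* (0.95, 0.93 and 0.93), *Cobl*, *Rragd* and *Ralgapa1* for *Cacnb3* (0.90, 0.88 and 0.88), and *Tmem64*, *Hoxb6* and *Robo2* for *Cacnb4* (0.97, 0.95 and 0.95). *Cacnb2* was below the level limit and was not ranked.

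To separate cellular expression from free RNA, 2000 UMIs were drawn from every kept cell, and 0 cells were too shallow for this. *Cacna2d1* was then found in 44.3% to 54.7% of *Sprr1a*- neurons and in 53.5% to 79.7% of *Sprr1a*+ neurons per library, against 3.45% to 4.84% of SGC-like cells. *Cacnb3* was found in 34.6% to 36.1%, 18.1% to 23.8% and 1.61% to 5.50% of the same groups. *Cacna2d2* was found in 14.0% to 16.4% of *Sprr1a*- neurons and 2.38% to 2.78% of *Sprr1a*+ neurons, and in 0 of 109 to 186 SGC-like cells per library, which allows a share of up to 1.96% to 3.33% (exact 95% binomial limit, counting error only). The shares of *Cacna2d2* in *Sprr1a*+ neurons lay within the limit of the same library in Male-CCI (2.52% against 3.08%) and Female-CCI (2.41% against 3.33%). In Male-Sham 1 of 42 and in Female-Sham 4 of 144 *Sprr1a*+ neurons held the gene, above limits of 1.96% and 2.51%, with exact intervals that start at 0.0603% and 0.762%. The other shares of these 3 genes in neurons lay above those in glia. SGC-like cells had a median of 4188 to 5160 UMIs before thinning and neurons 32126.5 to 65571.5. *Cacnb2* reached at most 1.73% of *Sprr1a*- neurons at this depth, against 0 of 109 to 186 SGC-like cells, so its shares lay within the limit of each library.

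To ask how nerve injury changed the family in the ganglion as a whole, the 2 CCI libraries were set against the 2 sham libraries over all their neurons. *Cacna2d1* was at 300.5, 329.9, 705.3 and 645.1 CPM. Both CCI libraries lay above both sham libraries, and *Cacna2d1* rose 2.23-fold (log2 fold change 1.15 ± 0.07 SE, adjusted p = 4.5e-05). *Cacna2d2* was at 81.30, 76.59, 44.65 and 39.88 CPM, with no overlap in the other direction, and fell to 0.557 of its sham level (log2 fold change -0.85 ± 0.06 SE, adjusted p = 8.9e-05). With these shifts, *Cacna2d1* made up 91.3% to 91.5% of alpha2delta UMIs in CCI neurons. Of the 7 members, 1 was called higher and 1 lower, and of the 17233 genes tested 27.8% were called, 15.2% higher and 12.7% lower.

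*Cacnb4* was at 73.34, 72.10, 48.24 and 51.26 CPM. The groups did not overlap, but the log2 fold change of -0.49 ± 0.04 (SE) lay just inside the fold limit (adjusted p = 0.00015). *Cacnb3* gave 218.1, 215.5, 168.0 and 164.5 CPM and *Cacnb1* 25.16, 25.14, 18.91 and 18.68 CPM, with log2 fold changes of -0.33 and -0.36 and adjusted p-values of 0.0014 and 0.0011. *Cacna2d3*, at 19.27, 18.16, 22.86 and 20.30 CPM, had a log2 fold change of 0.26 (adjusted p = 0.021). For these 4 genes CCI and sham libraries did not overlap, and none passed the fold limit. *Cacnb2* overlapped between groups, at 5.103, 5.694, 4.192 and 5.248 CPM, with a 95% interval of the log2 fold change from -0.43 to 0.15 (adjusted p = 0.36). Summed SGC markers in all neurons were also lower in CCI, 876.7 and 1074 CPM against 1321 and 1640 CPM, and their part in these results was not tested, while without the 4 neuronal clusters whose SGC markers summed above 5000 CPM *Cacnb4* passed the fold limit at -0.57. It also passed without Female-Sham and without Female-CCI.

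The comparison above pools *Sprr1a*+ and *Sprr1a*- neurons, which numbered 1467 and 1350 in Male-CCI and 42 and 3239 in Male-Sham. Within the CCI libraries, *Sprr1a*+ neurons were therefore compared with *Sprr1a*- neurons of the same library. *Cacna2d1* in Male-CCI had 404.8 CPM in *Sprr1a*- and 960.0 CPM in *Sprr1a*+ neurons, and in Female-CCI 429.9 and 856.8 CPM. It was higher in *Sprr1a*+ neurons of both libraries (log2 fold change 1.29 ± 0.09 SE, adjusted p = 0.0034). *Cacna2d2* went from 84.20 to 11.11 CPM in Male-CCI and from 68.84 to 11.39 CPM in Female-CCI, a fitted level of 0.166 times that of *Sprr1a*- neurons (log2 fold change -2.59 ± 0.08 SE, adjusted p = 7.4e-06). It was the member with the largest change in this comparison, and at 10000 UMIs per neuron it was still found in 10.4% to 10.98% of *Sprr1a*+ neurons against 49.1% to 53.7% of *Sprr1a*- neurons.

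All 4 beta genes were lower in *Sprr1a*+ neurons of both CCI libraries. *Cacnb4* had a mean of 75.55 ± 3.11 CPM in *Sprr1a*- and 26.08 ± 1.22 CPM in *Sprr1a*+ neurons (SD, n = 2; log2 fold change -1.36 ± 0.05 SE). *Cacnb3* had 218.2 ± 3.32 and 118.7 ± 6.65 CPM (log2 fold change -0.71 ± 0.03 SE), *Cacnb1* -0.70 ± 0.05 and *Cacnb2* -1.25 ± 0.10 on the same log2 scale. *Cacna2d3* was slightly higher, at 19.48 and 18.79 CPM against 25.74 and 21.79 CPM, with a log2 fold change of 0.48 ± 0.06 (SE) that did not pass the fold limit (adjusted p = 3.0e-05). In total 1 member was called higher and 5 lower, beside 45.6% of 16241 genes called, 20.9% higher and 24.7% lower. Classes make up different parts of the 2 arms, since 1244 of the 1467 and 1550 of the 1788 *Sprr1a*+ neurons were CCI-ind-like, and SGC markers summed to 665.4 and 960.3 CPM in the *Sprr1a*+ arm against 1126 and 1190 CPM in the *Sprr1a*- arm. Their part was not tested beyond the comparisons within classes below.

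Along the *Sprr1a* level, the members moved in different ways. *Cacna2d1* was lowest in neurons with at least 1 *Sprr1a* UMI and a normalized level not above 1, 385.7 CPM in Male-CCI and 412.8 CPM in Female-CCI. Above the limit of 1 it went up through each range to 1034 and 981.7 CPM at *Sprr1a* above 4. *Cacna2d2* dropped at the limit, from 82.76 and 64.61 CPM just below it to 15.33 and 13.96 CPM between 1 and 2, and stayed at 9.350 to 14.81 CPM beyond. *Cacnb3* likewise went from 218.6 and 213.7 CPM to 114.2 and 118.3 CPM. *Cacnb4* continued downward, from 37.30 and 34.06 CPM between 1 and 2 to 20.30 and 17.00 CPM above 4. The ranges share libraries and differ in class make-up, so no trend was tested.

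**Figure D2:**
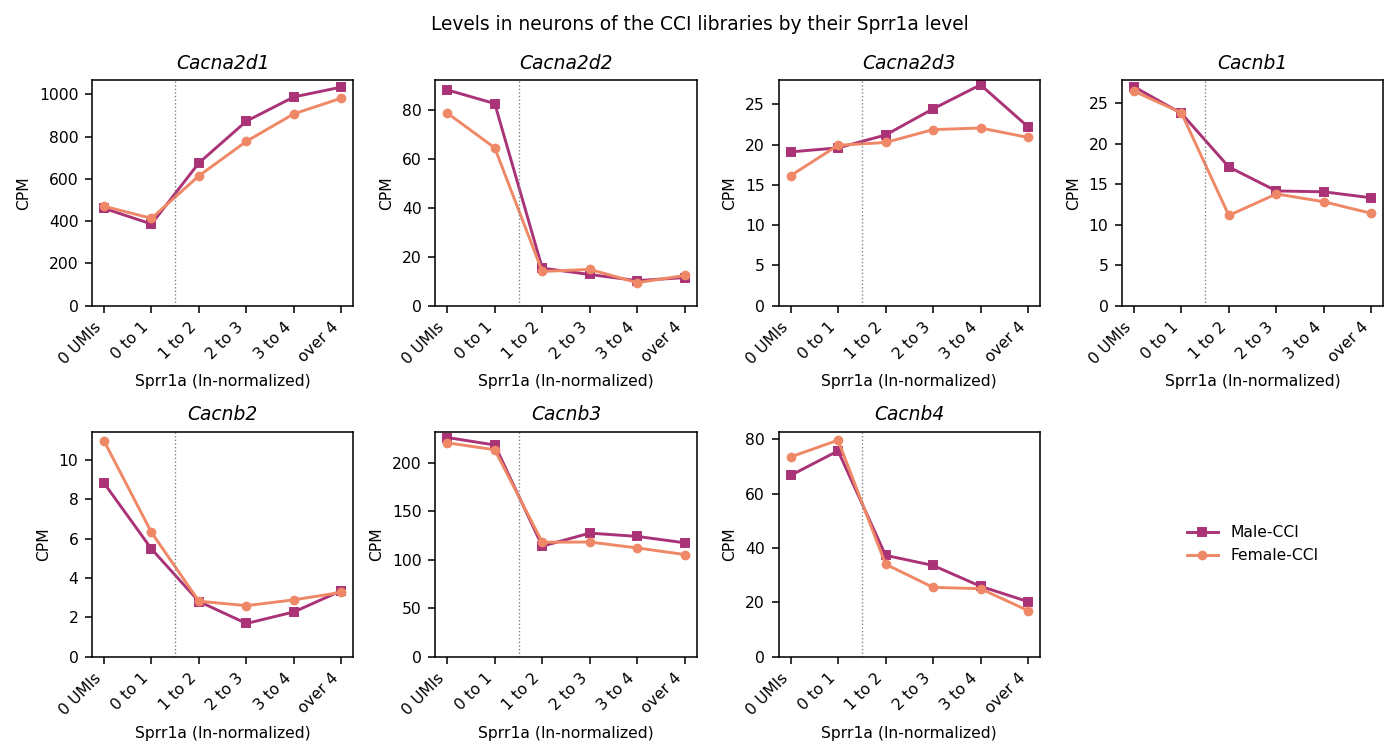
Levels of the 7 genes in neurons of Male-CCI and Female-CCI, grouped by ln-normalized Sprr1a. The y axis is CPM of summed UMIs on a linear scale from 0, points are single libraries, and the dotted line marks the limit between Sprr1a- and Sprr1a+ neurons. Cacna2d1 climbs to 1034 and 981.7 CPM in the highest range, while Cacna2d2 drops from 82.76 and 64.61 CPM to 15.33 and 13.96 CPM across the limit.

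*Sprr1a*+ neurons also occurred in sham ganglia, 42 in Male-Sham and 144 in Female-Sham, of which 37 and 127 were CCI-ind-like. Their members were compared with those of *Sprr1a*- sham neurons, and 2 were called higher and 5 lower, beside 37.3% of 15832 genes called, 14.7% higher and 22.6% lower. *Cacna2d1* was at 602.0 and 480.4 CPM in *Sprr1a*+ against 295.7 and 325.0 CPM in *Sprr1a*- sham neurons (log2 fold change 0.89 ± 0.06 SE). *Cacna2d3* was at 35.30 and 27.43 CPM against 19.01 and 17.86 CPM (0.83 ± 0.11). *Cacna2d2* was at 7.932 and 11.64 CPM against 82.46 and 78.72 CPM (-2.81 ± 0.12). *Cacnb2* had 0.3966 and 0.4987 CPM, which rest on few UMIs, against 5.177 and 5.865 CPM. The direction of each member was that seen within CCI, and whether the sizes differ between surgeries was not tested. The median log2 fold change of all genes was -0.11 in this comparison, and summed immune markers were at 42.83 CPM in the 42 *Sprr1a*+ cells of Male-Sham against 2.660 CPM in Female-Sham, a difference whose part was not tested.

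Within single classes, the contrast between *Sprr1a*+ and *Sprr1a*- neurons of CCI could be tested in NP1-, NF1-, NF2- and CCI-ind-like neurons. NF1-like neurons, the *Nefh*-rich class with the least *Cacna2d1* in sham, had the largest difference. In the *Sprr1a*- cells of the class *Cacna2d1* was at 59.32 CPM (Male-CCI) and 55.82 CPM (Female-CCI), and in the *Sprr1a*+ cells at 768.4 and 684.6 CPM. The log2 fold change was 3.95 ± 0.11 (SE), a 15.4-fold higher level (adjusted p = 8.5e-44). At 10000 UMIs per cell the gene was found in 40.7% and 34.0% of the *Sprr1a*- cells and in 100% of the *Sprr1a*+ cells, and its share of alpha2delta UMIs was 43.9% to 47.3% against 92.5% to 92.6%.

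NF1-like neurons comprised 2 clusters, and 53 of 55 and 30 of 32 *Sprr1a*+ cells lay in the cluster marked by *Ntrk2*. Inside that cluster *Cacna2d1* was at 78.42 and 68.78 CPM in *Sprr1a*- cells against 770.0 and 712.7 CPM in *Sprr1a*+ cells, a log2 fold change of 3.55 in a fit of that cluster alone. In the *Pvalb* cluster of the class, *Sprr1a*- neurons had 27.99 to 35.05 CPM over the 4 libraries. The *Sprr1a*- arms of the class rest on 64 and 54 cells. When libraries were clustered without integration, the 2 NF1-like clusters held 36 and 33 cells of Male-CCI and 30 and 23 of Female-CCI. A cluster named NF2-like and led by *Npy* then held 106 and 105 CCI cells and 0 sham cells. The naming of *Sprr1a*+ cells as NF1-like thus depended on integration.

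In the same NF1-like contrast, *Cacna2d2* went from 28.64 to 2.663 CPM in Male-CCI and from 22.88 to 2.351 CPM in Female-CCI (log2 fold change -3.07 ± 0.30 SE). *Cacna2d3*, by contrast, was higher, at 37.57 and 48.50 CPM in *Sprr1a*- against 58.58 and 53.48 CPM in *Sprr1a*+ neurons (0.73 ± 0.14). *Cacnb4* was lower, 119.6 and 131.8 CPM against 36.83 and 35.26 CPM (-1.48 ± 0.12), and *Cacnb2* was lower from 3.719 and 3.965 CPM to 1.109 and 0 CPM (-1.95 ± 0.70, adjusted p = 0.016). *Cacnb3*, at 142.5 and 132.7 CPM against 87.43 and 85.21 CPM, had a fitted log2 fold change of -0.39 ± 0.11 and was not called, while its plain CPM ratio was -0.67. *Cacnb1* was not called, and its sign differed between the fit, 0.38, and the plain ratio, -0.04. Of 7 members tested, 2 were higher and 3 lower, beside 43.8% of 11058 genes called, 20.9% higher and 22.9% lower. DESeq2 did not call *Cacnb2* or *Cacna2d3* here.

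NF2-like neurons, the other *Nefh*-rich class, started from more *Cacna2d1*. It was at 321.5 and 323.4 CPM in *Sprr1a*- cells against 962.7 and 756.1 CPM in *Sprr1a*+ cells (log2 fold change 1.60 ± 0.14 SE, adjusted p = 1.2e-07). *Cacna2d2* went from 26.79 and 12.78 CPM to 2.598 and 2.301 CPM (-2.83 ± 0.30), and *Cacna2d3* from 9.611 and 8.995 CPM to 17.73 and 16.11 CPM (1.06 ± 0.22). None of these 3 genes overlapped between the arms, and the share of all genes without overlap is not given here. *Cacnb4* (-1.68 ± 0.12) and *Cacnb3* (-0.72 ± 0.11) were lower, *Cacnb1* was not called, and *Cacnb2* did not pass the low-count filter. Of 6 members tested, 2 were called higher and 3 lower, beside 34.4% of 11086 genes, 16.0% higher and 18.4% lower, and DESeq2 did not call *Cacna2d3*.

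In NP1-like neurons, *Nppb*-rich non-peptidergic nociceptors, only the alpha2delta genes of the gabapentinoid-binding pair were called. *Cacna2d1* was at 175.0 and 280.5 CPM in *Sprr1a*- cells against 542.0 and 533.1 CPM in *Sprr1a*+ cells (log2 fold change 1.33 ± 0.22 SE, adjusted p = 0.037). *Cacna2d2* was at 137.2 and 78.12 CPM against 22.50 and 23.20 CPM (-2.15 ± 0.19, adjusted p = 4.3e-05). The *Sprr1a*- arm differed between libraries, and 12 of its 35 cells in Female-CCI lay in the cluster that held 97 of 98 and 111 of 113 *Sprr1a*+ NP1-like cells, and their *Cacna2d1* level was 488.5 CPM against 149.6 CPM in the other 23. *Cacna2d3*, *Cacnb1* and *Cacnb3* were tested and not called, with intervals of the log2 fold change from -0.57 to 0.24, -0.56 to 0.32 and -0.33 to 0.12. *Cacnb2* and *Cacnb4* were filtered out as too low. So 1 member was higher and 1 lower, beside 23.9% of 10934 genes called, 11% higher and 12.9% lower.

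CCI-ind-like neurons, most of which were *Sprr1a*+, had the highest *Cacna2d1* level of these 4 classes in each library. The *Sprr1a*- neurons, 41 and 73 cells, were at 665.2 and 669.6 CPM and the *Sprr1a*+ neurons at 1014 and 898.7 CPM (log2 fold change 0.57 ± 0.06 SE, adjusted p = 1.7e-14). *Cacna2d2* was at 22.10 and 20.61 CPM against 11.23 and 10.70 CPM (-0.90 ± 0.17), and was not called by DESeq2 (adjusted p = 0.054). The other 5 members were tested and not called, beside 4.5% of 14551 genes called, 2.28% higher and 2.22% lower. Of these, *Cacnb3* had an interval from 0.02 to 0.41 and *Cacnb4* from -0.32 to 0.27.

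The 5 CCI-ind-like clusters kept differences in the family. *Cacna2d3* ranged from 2.124 and 3.903 CPM in 1 cluster to 55.39 and 59.19 CPM in another (Female-CCI and Male-CCI). The cluster with the most *Cacna2d3* also had the most *Cacnb4*, 45.55 and 56.59 CPM, and the least *Cacnb2*, 0.1106 and 0.1038 CPM. The cluster with the least *Cacna2d3* had the most *Cacnb1*, 23.55 and 21.13 CPM, and the most *Cacnb2*, 11.10 and 9.960 CPM. Its *Cacna2d1* was 1121 and 1207 CPM, and over all 5 clusters *Cacna2d1* lay between 791.7 and 1207 CPM. These levels are a description with no test.

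**Figure D3:**
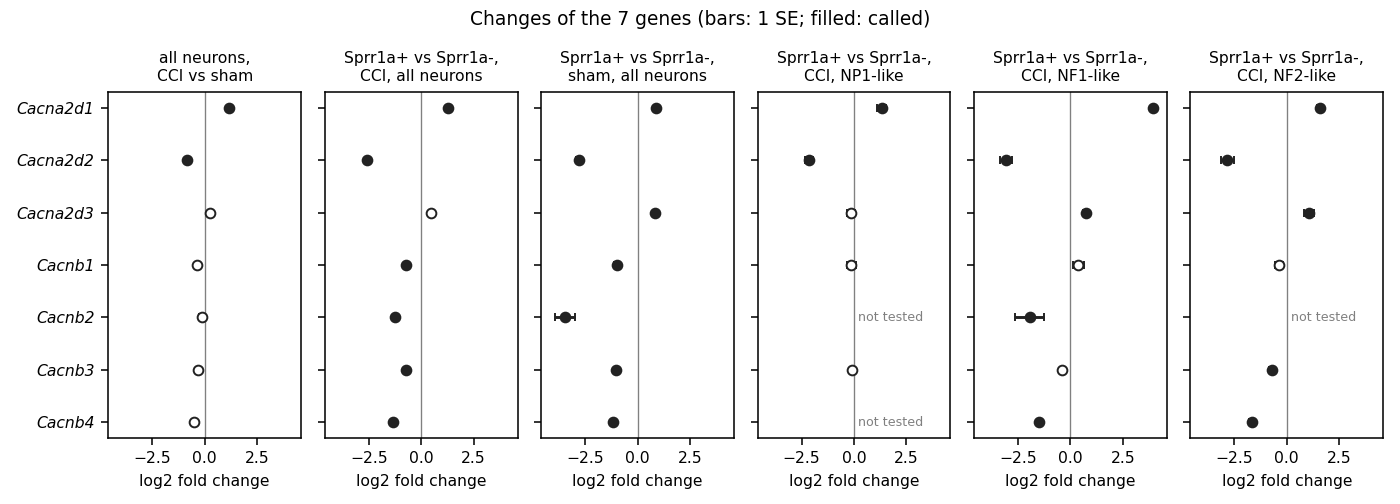
Fitted log2 fold changes of the 7 genes in 6 comparisons. Points are edgeR estimates with bars of 1 SE, filled where called, and the x axis is the log2 fold change. Cacna2d1 lies to the right of 0 in every panel, up to 3.95 in NF1-like neurons, and Cacna2d2 lies to the left in every panel, while Cacna2d3 is at 0.73 (NF1-like) and 1.06 (NF2-like) and at -0.16 in NP1-like neurons.

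Whether the contrast differed between the 4 classes was tested by an interaction in one edgeR fit. *Cacna2d1* (F = 59.47, adjusted p = 0.00019), *Cacnb4* (F = 33.75), *Cacna2d2* (F = 16.53), *Cacnb3* (F = 14.38) and *Cacna2d3* (F = 7.303) had adjusted p-values below 0.05, as did 39.9% of 12594 genes. *Cacnb1* (adjusted p = 0.23) and *Cacnb2* (adjusted p = 0.34) did not. Without CCI-ind-like neurons, 4 members still passed and *Cacna2d2* did not (adjusted p = 0.14). The 4 included *Cacnb4*, which was too low in NP1-like neurons for the test within that class. It was there at 0.5644 and 1.14 CPM in *Sprr1a*- and 2.006 and 1.271 CPM in *Sprr1a*+ neurons of CCI. Its log2 fold changes in NF1-like (-1.48) and NF2-like neurons (-1.68) lay close together.

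*Sprr1a*+ neurons of CCI were also set against *Sprr1a*- neurons of sham in the same class. This comparison shares its injured cells with the contrast within CCI, so the values are not an independent repeat. The naming of the NF1-like *Sprr1a*+ cells depended on integration, as above. In NF1-like neurons *Cacna2d1* rose 19.7-fold, from 42.67 and 50.36 CPM to 768.4 and 684.6 CPM (log2 fold change 4.30 ± 0.11 SE). It rose 4.30-fold in NP1-like and 3.70-fold in NF2-like neurons. *Cacna2d2* fell in all 3 classes, with log2 fold changes of -3.34 (NF1-like), -2.44 (NP1-like) and -3.48 (NF2-like). *Cacna2d3* rose in the NF1-like class (log2 fold change 0.81) and the NF2-like class (1.15), while its NP1-like groups overlapped.

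For the beta genes in this comparison, *Cacnb4* fell (log2 fold changes of -1.53 in the NF1-like and -1.59 in the NF2-like class), as did *Cacnb3* (-0.72 and -0.88). *Cacnb1* fell in NF2-like neurons (log2 fold change -0.62, adjusted p = 0.0056), a call that was lost in DESeq2 (adjusted p = 0.12) and without Male-Sham (adjusted p = 0.054), and was not called in NF1-like neurons, where its sign again depended on the scale (0.01 in the fit, -0.39 as a plain ratio). Between 2 and 6 members were called per class, 2 of 5 tested in the NP1-like, 5 of 7 in the NF1-like and 6 of 6 in the NF2-like class, beside 41.6%, 45.5% and 42.3% of all genes tested.

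**Figure D4:**
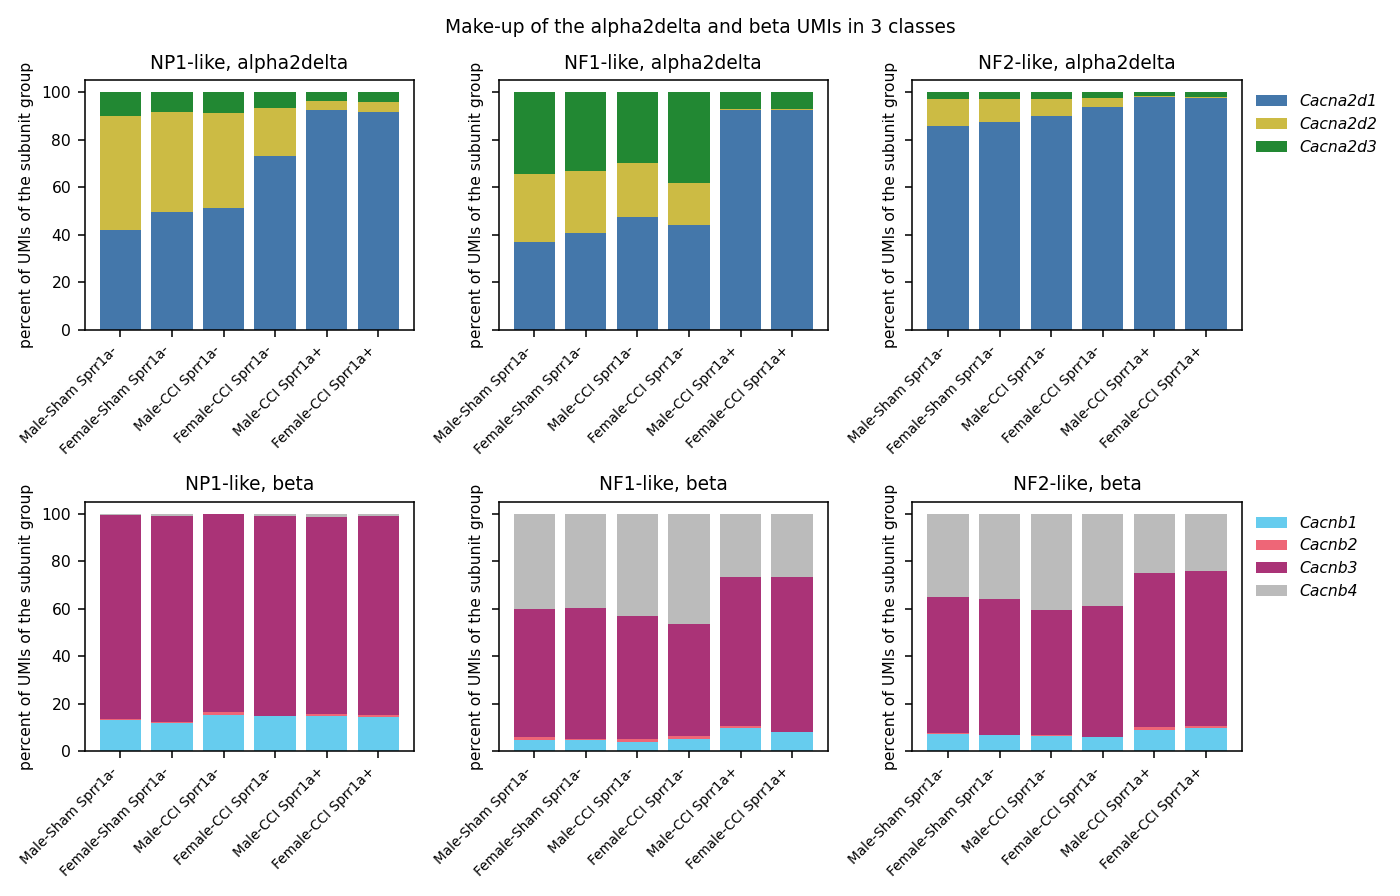
Percent of alpha2delta UMIs (top) and beta UMIs (bottom) from each gene in NP1-, NF1- and NF2-like neurons. Each bar is 1 library and arm, and bars add to 100%. The Cacna2d1 share in NF1-like neurons goes from 36.8% to 40.7% in sham to 92.5% to 92.6% in Sprr1a+ neurons of CCI, and the Cacnb4 share from 40.0% to 40.3% to 26.5% to 26.9%.

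The make-up of the family's transcripts shifted accordingly. In *Sprr1a*+ neurons of CCI over all classes, *Cacna2d1* was 96.3% of alpha2delta UMIs in both libraries and *Cacna2d2* 1.11% to 1.28%. In NP1-like neurons, where both genes had similar shares in sham, *Cacna2d1* reached 91.7% to 92.3%. The beta make-up moved less, with *Cacnb3* at 73.6% to 74.0% and *Cacnb4* at 16.2% to 16.3% of beta UMIs in *Sprr1a*+ neurons, against 67.6% to 67.8% and 22.7% to 22.8% in *Sprr1a*- sham neurons.

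To look at neurons not above the *Sprr1a* limit, *Sprr1a*- neurons of CCI were compared with *Sprr1a*- neurons of sham in 10 classes. These arms are not free of the marker. At least 1 *Sprr1a* UMI was held by 881 *Sprr1a*- neurons of Male-CCI and 1123 of Female-CCI, beside 469 and 725 with 0. In Male-Sham and Female-Sham 71 and 212 held one, beside 3168 and 5042 with 0. Few members were called, but some changes that were not called had larger fitted values, such as *Cacna2d1* in NP1-like neurons below. Sparse members also moved without a call. *Cacnb2* in NF1-like neurons was at 2.628, 1.552, 3.719 and 3.965 CPM. *Cacna2d3* in PEP3/4-like neurons was at 0.9075, 1.447, 2.148 and 1.806 CPM. PEP5-like neurons, the *Trpm8*-rich class, had the 2 calls. *Cacna2d1* was at 285.9, 323.1, 427.2 and 508.1 CPM, with no overlap, and rose by 0.59 ± 0.09 (SE, adjusted p = 0.00052) on the log2 scale. *Cacnb2* was at 16.54, 21.07, 25.39 and 31.03 CPM, also with no overlap (0.54 ± 0.15, adjusted p = 0.024). This *Cacnb2* call was lost when *Sprr1a*- meant 0 *Sprr1a* UMIs (0.47, adjusted p = 0.12), and DESeq2 gave it no adjusted p. In this class 3.39% of 12247 genes were called, 1.98% higher, and the other 5 members were not. Without Male-Sham neither gene was called, and without Female-CCI 1 member was called over the 10 classes, *Cacna2d3* in PEP1-like neurons.

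*Cacna2d1* had a positive log2 fold change in all 10 classes, from 0.10 in cLTMR-like to 0.80 in NP1-like neurons. In NP2- (0.27), NP3- (0.45), PEP1- (0.28), PEP2- (0.39) and PEP3/4-like neurons (0.27) its adjusted p was below 0.05 without passing the fold limit. In PEP3/4-like neurons, for example, it was at 610.7, 646.1, 774.0 and 755.7 CPM, and CCI and sham libraries did not overlap. Other settings called *Cacna2d1* in NP3-like neurons (0.56 with 0 *Sprr1a* UMIs, adjusted p = 0.041). They also called it in NF1-like neurons (0.56 within 1 cluster of the class, adjusted p = 0.018). The 0.80 in NP1-like neurons (adjusted p = 0.24) included the 12 cells of Female-CCI described above, and was 0.30 in a fit without their cluster, 0.19 with 0 *Sprr1a* UMIs and 0.37 without Female-CCI. Other settings called it, such as DESeq2 (0.78, adjusted p = 0.0072), no filter on low counts (0.77), doublets kept (0.60), and fits without Female-Sham (0.91) or Male-CCI (1.12).

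Among the other members, *Cacna2d3* in PEP1-like (0.43), *Cacnb4* in PEP2-like (0.36) and *Cacna2d2* in PEP3/4-like neurons (0.21) had adjusted p-values below 0.05 under the fold limit, and the first was at -0.02 when *Sprr1a*- meant 0 *Sprr1a* UMIs. *Cacna2d2* in NP2-like neurons was at 67.59, 65.07, 69.41 and 23.03 CPM, so that the 2 CCI libraries lay apart and the interval of the log2 fold change ran from -3.24 to 2.18, and without Male-CCI it was called lower (-1.54). A fit without 1 library assumes that the lone library left in its group varies like the other group, and that call rests on the low Female-CCI value. *Cacna2d2* in NF2-like neurons was called lower without a filter on low counts (-0.76) and without Female-Sham (-0.86) or Male-CCI (-1.32). Calls made without 1 library were also *Cacna2d2* in NP1-like neurons without Male-CCI (-0.71), and *Cacnb4* in NP3-like neurons without Female-Sham (0.99). *Cacnb2* was filtered out in NP1-, NP2-, NP3-, NF2- and cLTMR-like neurons and *Cacnb4* in NP1-like neurons. In edgeR's test no member was called in the other 9 classes, where 18 of 57 tests (31.6%) had an unadjusted p below 0.05, beside 23.5% of the 108488 tests of all genes in these classes, and DESeq2 called 1 member (*Cacna2d1* in NP1-like neurons). Calls over all genes made up 3.97% of genes in NP1-, 4.47% in NP2-, 2.55% in NP3-, 5.26% in PEP1-, 4.46% in PEP2-, 3.56% in PEP3/4-, 1.12% in NF1-, 1.72% in NF2- and 1.72% in cLTMR-like neurons.

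Other genes of the channel complex were followed as a list of 36: pore and gamma subunits, alpha2delta relatives, RGK GTPases, STAC proteins and partners of alpha2delta-1. Over all neurons, 31 were tested, and 5 were called higher and 7 lower in CCI, beside the 27.8% of all genes called. The 5 largest were *Grin2a*, *Cacng1* and *Cacna2d4*, each at 0.0185 to 0.123 CPM in every library, *Thbs2* (1.28 ± 0.19), and *Rem2*, an RGK GTPase that inhibits calcium channels, at 7.513, 7.700, 3.110 and 2.083 CPM (-1.49 ± 0.18). Within CCI, 27 were tested, and 3 were higher and 13 lower in *Sprr1a*+ neurons, beside 45.6% of all genes. *Cacna1e*, the R-type pore, went from 18.15 and 16.59 CPM to 0.4543 and 0.5335 CPM (-4.96 ± 0.11), and *Cacna1i*, a T-type pore, from 4.273 and 6.748 CPM to 0.1022 and 0.1861 CPM (-5.07 ± 0.19). *Rem2* (-4.49), *Cacng3* (-2.86) and *Thbs1* (-2.31), which encodes an alpha2delta-1 ligand, completed the 5 largest. Within sham, 26 were tested, and 1 was higher and 13 lower, beside 37.3% of all genes, with *Cacna1i* (-5.60), *Cacna1e* (-4.99), *Rem2* (-4.36), and *Thbs1* and *Cacng8*, which had 0 UMIs in *Sprr1a*+ sham neurons.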

How the data were processed

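Each library's matrix holds UMI counts, which the authors made from 3′ single-cell reads with Cell Ranger on mm10 and deposited as whole counts. The submitters' processing notes give Cell Ranger 2.1.1 and the matrix headers 3.0.2. Strand use in counting is not given in the sources used here. Antisense genes that overlap the members and were counted held 0 to 59 UMIs in all.

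The 7 members, the gene lists and the rules for named genes were chosen with earlier results of these data known. Doublets were scored by Scrublet (scanpy 1.11.5), and the top scores were removed in the number that the study removed per library, since the automatic threshold of Scrublet marked 0 to 121 barcodes. Cells with under 1500 genes or over 10% mitochondrial UMIs were dropped. Seurat 5.3.0 integrated and clustered the rest (3000 variable genes, 20 components, resolution 0.8). A cluster was named from at least 3 markers that at least 10% of its cells held at 2 times their level elsewhere. The condition that a name needs a defining marker was added after seeing the data. So was the rule that a cluster with neuronal levels of *Tubb3*, *Snap25* and *Uchl1* takes no glial or immune name.

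Counts were summed by library, class and *Sprr1a* arm, with at least 10 cells per library and arm. edgeR 4.0.16 (R 4.3.3) filtered low counts, scaled by TMM and ran quasi-likelihood tests over all genes with Benjamini-Hochberg adjustment, with library as a block within a surgery. Named were all members, up to 5 called genes of the channel list per comparison over all neurons with the largest absolute log2 fold change, and the 3 genes most alike each member. DESeq2 1.42.0 and other settings were tried. The tests were checked on simulated counts. Intervals of fold changes are 95%, from the SE and the degrees of freedom of the quasi-likelihood test.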

Additional observations from a re-analysis of the deposited data

Results flagged for a closer look

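The difference between *Sprr1a*+ and *Sprr1a*- neurons of CCI varied among NP1-, NF1-, NF2- and CCI-ind-like neurons for 5 members in the edgeR interaction test: *Cacna2d1* (F = 59.47), *Cacnb4* (F = 33.75), *Cacna2d2* (F = 16.53), *Cacnb3* (F = 14.38) and *Cacna2d3* (F = 7.303), with adjusted p-values of 0.0055 or lower. Of the 12594 genes in this test, 39.9% had an adjusted p below 0.05. Without CCI-ind-like neurons *Cacna2d2* did not pass (adjusted p = 0.14). *Cacnb4* was too low in NP1-like neurons for a test within that class.

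In *Sprr1a*- neurons, the log2 change after CCI had opposite signs in males and females in 19 of 70 pairs of a gene and a class. In 4 of these, from 3 genes, the sexes differed by more than 0.5. The difference between sexes, female minus male in log2 of CCI over sham with 1 CPM added, was -1.50 for *Cacna2d2* in NP2-like, -1.73 for *Cacnb2* in NP1-like, -1.17 for *Cacnb4* in NP3-like and -1.41 for *Cacnb2* in NF2-like neurons. Each sex has 1 library per surgery, so these differences were not tested, and the *Cacnb2* values rest on levels of 0 to 2.621 CPM.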

How the results depend on the processing

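Over 777 comparisons of 61 single values of the members with an alternative, 720 kept their direction and, where tested, their side of the thresholds. Fits with no test counted among these if they lay within the SE of the main value. Of the others 31 had no test and moved by more than that SE. A further 13 passed the thresholds where they had not before, 11 no longer passed and 2 reversed. The 2 were *Cacnb2* over all neurons, at -0.31 to 0.01 with 1 library left out and above 0 only without CCI replicate 1 (Male-CCI), and *Cacna2d3* in *Sprr1a*- PEP1-like neurons, at -0.02 when *Sprr1a*- meant 0 *Sprr1a* UMIs. The causes were not tested.

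Calls in *Sprr1a*- neurons depended on the settings. Members called over the 10 classes of *Sprr1a*- neurons, 2 in the report, were 4 without a filter on low counts, 4 with sex as a replicate block (*Cacna2d1* in NP1-like neurons at 0.76 and *Cacna2d2* in NF2-like neurons at -0.74 were added), and 0 to 6 with 1 library left out. Within 1 cluster each of NF1- and NP1-like neurons, 1 member (*Cacna2d1* in NF1-like neurons) was called instead of 0, and 202 genes instead of 521. In the 9 classes testable with 0 *Sprr1a* UMIs, 2058 genes were called instead of 3729. DESeq2 called 1799 genes instead of 3922 in *Sprr1a*- neurons and 4938 instead of 11923 between arms by class. Without CCI-ind-like neurons, 3027 genes instead of 5030 differed between classes.

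*Cacnb4* over all neurons passed the fold limit without a filter (-0.50), without Sham replicate 2 or CCI replicate 2, and without the clusters rich in glial RNA. *Cacna2d1* in *Sprr1a*+ against *Sprr1a*- neurons of CCI ranged from 1.16 to 1.42 over 10 alternatives in all neurons and from 3.46 to 4.03 over 13 in NF1-like neurons. The libraries share sexes but no animals. Deviations of Male-Sham and Male-CCI from their group means correlated (r = 0.70 over 8282 genes), but with 2 pairs the shared number was not taken to pair the libraries.

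The settings that leave out glial clusters, keep 1 cluster of a class or drop CCI-ind-like neurons were chosen after seeing the data. Not run were the unintegrated NF1-like contrasts, which had too few *Sprr1a*+ cells, NP1-like contrasts within 1 cluster and NF2-like neurons with 0 *Sprr1a* UMIs. Leaving out a library within 1 surgery gives values with no test. Arms of 31 to 73 cells and sparse *Cacnb2* limit the precision.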

Other observations

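*Cacna2d2* in *Sprr1a*- NP2-like neurons, the *Mrgprd*-rich class, differed between the CCI libraries in both clusters of the class. In the first it was at 61.71, 68.12, 72.08 and 29.96 CPM and in the second at 76.05, 59.77, 61.81 and 6.374 CPM (sham before CCI, and male before female). Thinned to 2000 UMIs, the share of NP2-like cells with the gene was 14.8%, 14.7%, 12.2% and 3.09%, with an exact interval of 1.01% to 7.06% in Female-CCI that covers counting error only. *Cacna2d1* in the same cells was at 195.8, 198.5, 243.8 and 237.9 CPM.

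SGC-like cells held less *Cacna2d1* (16.1 to 32.4 CPM) and *Cacnb3* (4.30 to 21.6 CPM) than each of the 10 classes of *Sprr1a*- sham neurons. *Cacna2d2* was at 0 to 1.45 CPM there, *Cacna2d3* at 0 to 1.80 CPM, *Cacnb4* at 1.80 to 6.27 CPM and *Cacnb2* at 0 in every library. *Cacnb1* was at 10.74, 5.815, 0 and 3.594 CPM, so its level in SGC-like cells of Male-Sham, from 12 UMIs, was near that of cLTMR-like neurons of the same library (11.67 CPM). The *Cacna2d3* level of *Sprr1a*- PEP3/4-like sham neurons, 0.9075 and 1.447 CPM, lay within the range of SGC-like cells, and the *Cacnb4* level of NP1-like sham neurons, 1.297 and 1.789 CPM, below it.

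The unnamed *Calb1* cluster, which was in no class comparison, had *Cacna2d1* at 508.4, 484.1, 627.8 and 544.4 CPM and *Cacnb3* at 121.9, 128.8, 124.5 and 124.9 CPM.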
